A study of Mus musculus with 24 samples.

Results

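Gene expression was compared between the hippocampus and the cerebral cortex of 4 mice that lack glutamine synthetase in the liver (KO). The 8 arrays, 1 of each region from each of KO animals 1 to 4, were chosen by their labels from the 24 arrays of the series, and the 19572 rows with a named gene were tested. The same regions of 4 wild-type mice (WT, 8 arrays) served to ask which regional differences hold in the knockout. Cerebellum was the remaining region. The knockout is specific to the liver, so that both brain regions of a KO animal carry the same brain genotype. The sources used here state neither strain, age and sex nor the promoter that drives the deletion, and the row of the deleted gene was not analysed here.

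The hippocampus is built from the granule cells of the dentate gyrus and the pyramidal cells of fields CA1 to CA3, which pass signals on in sequence and are known for their part in memory. The neocortex is built from layers of projection neurons, the upper ones wired within the cortex and the deep ones projecting out of it. Each of these classes is known by its own transcription factors, channels and adhesion molecules. Liver glutamine synthetase binds ammonia to glutamate, and the series concerns changes in the brain under raised blood ammonia.

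Values are the deposited log2 values, and a difference of 1 is a 2-fold difference on that scale. A difference is hippocampus minus cortex within the KO animals, given with limma's standard error (SE). That SE pools the spread of the KO and the WT pairs and is moderated over genes, so it can understate the spread among the 4 KO pairs where 1 or 2 of them stand apart. A gene "passed" at an adjusted p under 0.05 in limma over all 19572 rows. In whole tissue, fewer cells of a type and less RNA per cell cannot be told apart. Array medians lay between 8.874 and 8.948, and the KO hippocampus and KO cortex arrays correlated at 0.9811 to 0.9889 over genes.

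Genes of neighbouring brain tissue set some arrays apart before any comparison. The mean of 17 measured markers of the olfactory bulb was 8.8, 9.13, 8.95 and 8.82 in hippocampus KO 1 to 4, against 12.23, 8.83, 8.9 and 11.66 in cortex KO 1 to 4. Cortex KO 1 and cortex KO 4 therefore stood far above the other KO arrays, and in WT the same mean ran from 8.82 to 9.15 in hippocampus and from 8.63 to 9.2 in cortex. The mean of 13 choroid plexus markers was 11.6, 9.89, 8.96 and 8.43 in hippocampus KO 1 to 4, while cortex KO spanned 8.17 to 8.53. Hippocampus KO 1 was the highest and KO 4 lay inside the range of cortex KO. In WT this mean varied as well, from 8.75 to 10.42 in hippocampus and from 8.33 to 8.99 in cortex. The mean of 13 markers of thalamus and habenula was 10.66, 10.99, 9.85 and 9.53 in hippocampus KO 1 to 4, against 9.17 to 9.92 in cortex KO. In WT it ran from 9.82 to 11.22 in hippocampus and from 9.24 to 10.3 in cortex, so spread in these 2 lists was not particular to KO. Counts are therefore given below also from KO 2 and KO 3 alone, which leaves out both arrays of KO 1 and KO 4. Such a count covers each list member that passed there, whether or not it passed over the 4 animals. The share of all genes to set beside it is 3.8%. The WT arrays stayed in this fit to KO 2 and KO 3. Its 4 residual degrees of freedom came mostly from the WT pairs, so its p-values rest largely on the WT spread.

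**Figure D1:**
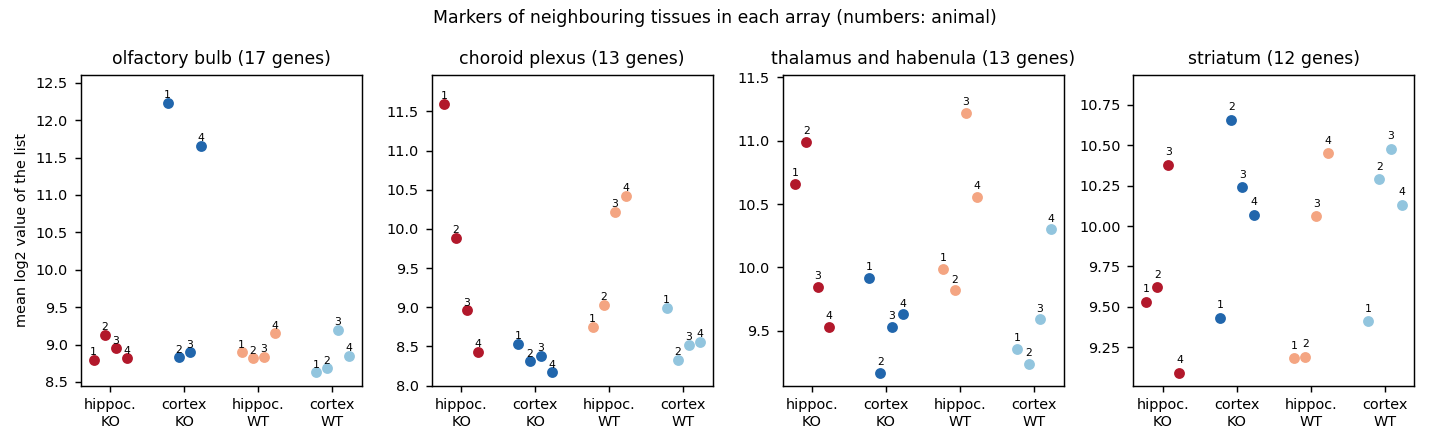
Mean log2 value (vertical axis) of 4 lists of markers of neighbouring tissue in each array, 1 point per array and the number giving the animal, for hippocampus KO, cortex KO, hippocampus WT and cortex WT. Cortex KO 1 and KO 4 sit at 12.23 and 11.66 for the olfactory bulb, whereas the other 14 arrays sit at or below 9.2.

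In the KO animals 1289 genes passed, which is 6.59% of those tested. In hippocampus 741 were higher (3.79%) and 548 were lower (2.8%) than in cortex. A 2-fold difference as well was found for 353 genes (1.8%), 189 higher and 164 lower. The median difference was 0.71 among the genes that rose and -0.76 among those that fell, against -0.001 over all genes. The 4 hippocampus arrays lay above the 4 cortex arrays without overlap in 666 of the 741 higher genes, against 7.12% of all genes, and below them in 462 of the 548 lower genes, against 4.72% of all genes. From KO 2 and KO 3 alone 743 genes passed (3.8%), of which 552 were among the 1289 in the same direction, and 350 passed with a 2-fold difference. No gene of the 1289 turned its direction without KO 1 and KO 4. Of the 353, 273 passed there as well.

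Genes of the dentate gyrus and of the hippocampus at large showed the widest separation in favour of hippocampus among the lists of brain regions. Prox1, a homeobox factor that marks dentate granule cells, had 12.52, 12.14, 12.76 and 12.86 in hippocampus KO 1 to 4, against 8.84, 9.91, 9.3 and 9.18 in cortex KO 1 to 4. Every hippocampus array was above every cortex array by more than the spread within either region, and the difference was 3.26 ± 0.25 (SE, adjusted p = 1.47e-05). C1ql2, a C1q-like protein secreted at mossy fibre synapses, averaged 10.88 ± 0.24 in hippocampus KO and 7.94 ± 0.36 in cortex KO (SD, n = 4 each), a difference of 2.94 ± 0.32 (SE, adjusted p = 0.000182). Dsp, which encodes the junction protein desmoplakin, differed by 2.54 ± 0.14 and Lct, the gene of lactase, by 1.55 ± 0.18. Of the 13 dentate gyrus genes 8 passed (61.5%, against 6.59% of all genes), all 8 higher in hippocampus, and the list's median was 1.2 against -0.001 over all genes. The 5 that did not pass were Fam163b, Plk5, Pter, C1ql3 and Dock10, with differences from -0.33 to 0.67. With KO 2 and KO 3 alone 7 passed, all higher, with a median of 1.54. Of these 7, 6 were among the 8, Dock10 came in, and Trpc6 and Calb1 did not pass (adjusted p = 0.0517 and 0.278).

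Shisa6, an auxiliary subunit of AMPA-type glutamate receptors, had 13.92, 13.52, 14.13 and 14.49 in hippocampus KO 1 to 4, against 11.12, 9.43, 10.73 and 10.47 in cortex KO 1 to 4. The regions were separated in each animal, and the difference was 3.58 ± 0.24 (SE, adjusted p = 8.12e-06). Cabp7, a calcium-binding protein, had 13.25, 13.05, 13.71 and 13.91 in hippocampus KO 1 to 4, against 10.03, 9.46, 9.85 and 9.67 in cortex KO 1 to 4. Its difference of 3.73 ± 0.29 (SE, adjusted p = 1.62e-05) was the largest among the genes that passed. Nr3c2, the mineralocorticoid receptor that binds corticosterone in limbic neurons, had 13.62, 13.55, 14.09 and 14.09 in hippocampus KO 1 to 4, against 11.88, 11.19, 11.48 and 11.83 in cortex KO 1 to 4. Its lowest hippocampus array was more than 1 above its highest cortex array, and the difference was 2.24 ± 0.15 (SE, adjusted p = 8.12e-06). Tgfb2, a ligand of the TGF-beta family, averaged 11.86 ± 0.19 in hippocampus KO and 8.94 ± 0.26 in cortex KO (SD, n = 4 each). All 8 measured genes of the list for the hippocampus at large rose, with a median of 1.92, and 6 of them passed with KO 2 and KO 3 alone.

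The pyramidal cell fields gave a mixed picture. Among 6 genes of CA1, Spink8, a serine peptidase inhibitor of the Kazal type, was higher by 2.76 ± 0.27 (SE, adjusted p = 9.5e-05) and Fibcd1, a fibrinogen domain protein, by 1.73 ± 0.17 (SE, adjusted p = 8.56e-05). These 2 of 6 are 33.3%, against 6.59% of all genes. Of the other 4, Wfs1, the wolframin gene used as a CA1 marker, averaged 12.69 ± 0.26 in hippocampus KO and 11.96 ± 0.49 in cortex KO (SD, n = 4 each), with an adjusted p of 0.179, although its arrays did not overlap. Among 14 genes of CA2, CA3 and mossy cells 8 rose and 1 fell (64.3%, against 6.59% of all genes), with a median of 0.59. St18, a zinc finger factor, was higher by 3.41 ± 0.24 (SE, adjusted p = 8.12e-06), and Grik4, the kainate receptor subunit typical of CA3, by 1.47 ± 0.2 (SE, adjusted p = 0.000897). Iyd, a deiodinase of iodotyrosines, rose by 1.1 ± 0.15. The member that fell was Coch, which encodes cochlin, with a mean of 8.79 ± 0.53 in hippocampus KO and 10.37 ± 0.5 in cortex KO (SD, n = 4 each) and a difference of -1.58 ± 0.28 (SE, adjusted p = 0.0045).

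Other genes among the largest differences in favour of hippocampus are not on the lists of hippocampal fields. Slc44a5, of the choline transporter-like family, was higher by 3.23 ± 0.18 (SE, adjusted p = 2.89e-06) and Npy2r, the Y2 receptor of neuropeptide Y, by 3.06 ± 0.23 (SE, adjusted p = 1.29e-05). Slc9a4, a sodium-proton exchanger, averaged 10.15 ± 0.48 in hippocampus KO and 7.34 ± 0.78 in cortex KO (SD, n = 4 each). Slit1, a secreted repellent of growing axons, averaged 12.85 ± 0.24 in hippocampus KO and 10.37 ± 0.25 in cortex KO (SD, n = 4 each). Olfml2b, Syna, Prdm8 and Kctd4 differed by 2.32 to 2.81, each with all 4 animals in that direction and no overlap of arrays. Of these, Syna derives from a retroviral envelope gene and Prdm8 encodes a zinc finger protein of the PR domain family.

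**Figure D2:**
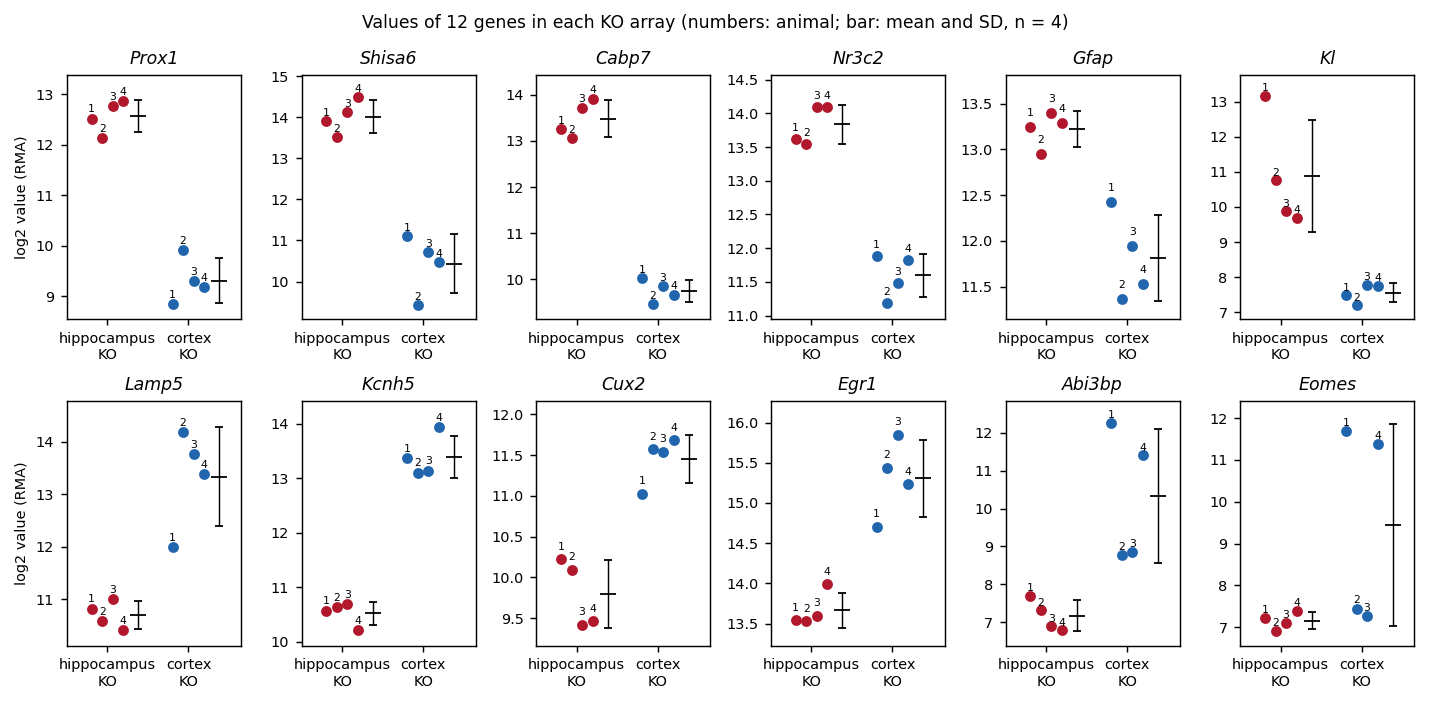
Log2 value (vertical axis, a separate scale in each panel) of 12 genes in the 4 hippocampus KO arrays (left, red) and the 4 cortex KO arrays (right, blue), the numbers giving the animal and the bars the mean and SD. Prox1, Shisa6, Cabp7 and Nr3c2 separate the regions in every animal, whereas Abi3bp and Eomes in cortex are high in KO 1 and KO 4.

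Upper layer genes of the neocortex were lower in hippocampus. Kcnh5, a voltage-gated potassium channel of the EAG type, had 10.56, 10.63, 10.68 and 10.21 in hippocampus KO 1 to 4, against 13.36, 13.1, 13.13 and 13.93 in cortex KO 1 to 4. The regions were far apart in every animal, and the difference was -2.86 ± 0.22 (SE, adjusted p = 1.65e-05). Lamp5, a membrane protein of the lysosome-associated family found in superficial cortical neurons, had 10.82, 10.58, 11 and 10.41 in hippocampus KO 1 to 4, against 12, 14.19, 13.77 and 13.39 in cortex KO 1 to 4. Cortex KO 1 was the lowest cortex array but still above all hippocampus arrays, and the difference was -2.63 ± 0.32 (SE, adjusted p = 0.000338). Cux2, a homeobox factor of upper layer neurons, had 10.22, 10.09, 9.42 and 9.46 in hippocampus KO 1 to 4, against 11.02, 11.57, 11.54 and 11.68 in cortex KO 1 to 4. Its regions did not overlap and differed by -1.65 ± 0.19 (SE, adjusted p = 0.000283). Rorb, a nuclear receptor of layer 4, fell by 0.96 ± 0.21 (SE, adjusted p = 0.0177), with overlap between the arrays. Dkkl1, a dickkopf-like secreted protein, fell by 2.24 ± 0.24. Of the 14 upper layer genes 8 fell and 1, Scnn1a, rose (64.3%, against 6.59% of all genes), with a median of -0.86. Without KO 1 and KO 4, 7 fell, and 6 of these were among the 8, with Rspo1 the seventh. Scnn1a did not pass there (0.34, adjusted p = 0.385), and the gene that rose was Mdga1 (0.89, adjusted p = 0.0284).

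Deep layer genes split in both directions. Of 20 measured, 6 fell and 4 rose, 50% against 6.59% of all genes, and the median was -0.04. Tbr1, a T-box factor of deep layer neurons, averaged 12.48 ± 0.17 in hippocampus KO and 13.89 ± 0.4 in cortex KO (SD, n = 4 each) and fell by 1.41 ± 0.18 (SE, adjusted p = 0.000452). Myl4, a myosin light chain, fell by 1.38 ± 0.27 and Deptor, an inhibitor of the mTOR kinase, by 1.19 ± 0.23. The 4 that rose were Hs3st4, Bcl11b, Parm1 and Bcl6, by 0.62 to 0.87. Fezf2, the factor that specifies subcortical projection neurons, averaged 12.2 ± 0.28 in hippocampus KO and 11.62 ± 0.88 in cortex KO (SD, n = 4 each) and did not pass (adjusted p = 0.346). Its lowest arrays were cortex KO 1 and KO 4, and with KO 2 and KO 3 alone its difference was -0.38. From those 2 animals 3 deep layer genes fell and 0 rose by the same limma threshold, and Deptor was at -0.79 (adjusted p = 0.144).

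Several genes with large differences in favour of cortex were on neither layer list. Chrdl1, an antagonist of bone morphogenetic proteins, averaged 7.85 ± 0.13 in hippocampus KO and 10.54 ± 0.65 in cortex KO (SD, n = 4 each) and fell by 2.69 ± 0.21 (SE, adjusted p = 1.47e-05). Cckbr, the cholecystokinin B receptor, fell by 2.2 ± 0.18 (SE, adjusted p = 2.5e-05), and its 4 cortex arrays lay within 12.58 to 12.9. Ipcef1 fell by 2.58 ± 0.18, and Rgs6, a regulator of G protein signalling, by 2.37 ± 0.24. Mef2c, a MADS-box factor of cortical excitatory neurons, averaged 14.4 ± 0.24 in hippocampus KO and 16.43 ± 0.18 in cortex KO (SD, n = 4 each). Cbln2, a cerebellin that organises synapses, and Atp6ap1l each fell by 2.04. Ephrin-A5 (Efna5), a surface ligand of Eph receptors, fell by 1.93 ± 0.21 (SE, adjusted p = 0.000176).

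A further set of genes that fell in hippocampus followed cortex KO 1 and KO 4. Abi3bp, an extracellular matrix protein, had 7.7, 7.31, 6.89 and 6.79 in hippocampus KO 1 to 4, against 12.27, 8.78, 8.86 and 11.41 in cortex KO 1 to 4. Its difference of -3.16 ± 0.43 (SE, adjusted p = 0.000798) was -1.72 with KO 2 and KO 3 alone (adjusted p = 0.00116), where it passed as well. Eomes, a T-box factor of olfactory bulb projection neurons and of neuronal progenitors, had 7.23, 6.91, 7.11 and 7.38 in hippocampus KO 1 to 4, against 11.7, 7.45, 7.26 and 11.37 in cortex KO 1 to 4. Only cortex KO 1 and KO 4 were high, cortex KO 3 lay inside the hippocampus range, and the difference of -2.29 ± 0.57 (SE, adjusted p = 0.0297) was -0.35 without those animals (adjusted p = 0.342). Its 4 differences within KO animals 1 to 4 were -4.47, -0.54, -0.15 and -3.99, with an SE of 1.13 from these 4 alone. Of the 17 olfactory bulb genes 17 had a negative difference and 4 passed (23.5%, against 6.59% of all genes): Eomes, Gng4, Meis2 and Sall3. Their median was -1.39, and with KO 2 and KO 3 alone it was 0.12, with 0 lower and 1, Calb2 (calretinin), higher. Th, the rate-limiting enzyme of dopamine synthesis, had 7.7, 9.92, 8.19 and 8.56 in hippocampus KO 1 to 4, against 14.18, 9, 8.66 and 13.23 in cortex KO 1 to 4, and did not pass (adjusted p = 0.0962).

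Further genes had the same array pattern. Dcx, the doublecortin gene of migrating neurons, averaged 10.86 ± 0.17 in hippocampus KO and 12.69 ± 1.49 in cortex KO (SD, n = 4 each), and its difference of -1.82 was -0.45 with KO 2 and KO 3 alone (adjusted p = 0.222). Gad1, the main enzyme of GABA synthesis, had 12.64, 12.08, 12.73 and 12.72 in hippocampus KO 1 to 4, against 14.81, 12.55, 12.67 and 14.24 in cortex KO 1 to 4. Its difference of -1.03 ± 0.27 (SE, adjusted p = 0.0385) was -0.2 without KO 1 and KO 4. Syt6, a synaptotagmin, fell by 2.72 ± 0.5 over 4 animals and its difference was -1.16 with KO 2 and KO 3 alone (adjusted p = 0.0974). Slco5a1, of the organic anion transporter family, went the same way, at -1.97 and -0.43. In each of these genes cortex KO 1 and KO 4 were the highest cortex arrays. Of the 10 measured genes of neurogenesis, Eomes and Dcx fell and none rose (20.0%, against 6.59% of all genes). With KO 2 and KO 3 alone 0 of them passed in limma.

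Markers of choroid plexus varied widely among the hippocampus arrays. Ttr, the thyroid hormone carrier made by choroid plexus, had 18.33, 17.15, 13.64 and 10.65 in hippocampus KO 1 to 4, against 12, 10.81, 11.11 and 10.14 in cortex KO 1 to 4. The hippocampus arrays covered a range of over 7, hippocampus KO 4 lay inside the cortex range, and the difference of 3.93 ± 1.15 (SE) did not pass (adjusted p = 0.0652). In WT, Ttr varied too, with 13.6, 14.37, 17.4 and 17.69 in hippocampus WT 1 to 4. Cortex WT 1 to 4 had 15.28, 11.61, 11.71 and 11.43. Kl, the klotho gene, had 13.17, 10.77, 9.88 and 9.7 in hippocampus KO 1 to 4, against 7.49, 7.2, 7.79 and 7.76 in cortex KO 1 to 4. Its regions did not overlap, and it passed (3.32 ± 0.51 SE, adjusted p = 0.00174). It was the 1 of 13 choroid plexus genes to do so, 7.69% of the list and close to the 6.59% of all genes, and the list median was 1.3. Without KO 1 and KO 2, whose hippocampus arrays were the highest in these markers, the list median was 0.2 and Kl, at 2.01 (adjusted p = 0.0239), was the 1 gene of the list that passed.

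Of the thalamic genes that passed, Prkcd and Plekhg1 declined from hippocampus KO 1 to KO 4, whereas Lhx9 did not. Prkcd, protein kinase C delta, had 14.1, 13.17, 11.91 and 10.49 in hippocampus KO 1 to 4, against 9.86, 9.54, 9.91 and 9.69 in cortex KO 1 to 4. The hippocampus arrays were the higher ones throughout, with a spread of 1.57 (SD) against 0.17 in cortex, and the difference was 2.67 ± 0.48 (SE, adjusted p = 0.00487). Lhx9, a LIM homeobox factor, rose by 2.21 ± 0.25 (SE, adjusted p = 0.000226) with a spread of 0.29 (SD) in hippocampus, and Plekhg1 by 1.49 ± 0.37 (SE, adjusted p = 0.0307). These were the 3 of 13 thalamus and habenula genes that passed (23.1%, against 6.59% of all genes). Of the 13, 7 differences were positive and 6 negative, with a median of 0.32. Without KO 1 and KO 2 the median was -0.13, and the 1 that passed was Lhx9, at 2.22. Of 7 ependyma genes Cfap126, Meig1 and Tekt1 rose, by 1.5, 0.89 and 0.68 (42.9%, against 6.59% of all genes). Of 12 genes of meninges and fibroblasts Dcn (decorin) rose by 1.97 and Igf2 by 0.93 (16.7%, against 6.59% of all genes). Both had overlap of arrays. In that list 5 differences were positive and 7 negative, with a median of -0.02. Without KO 1 and KO 2 none of the ependyma and meninges genes passed in limma. Among 12 striatal genes Pde10a, a phosphodiesterase of striatal neurons, fell by 0.93 ± 0.21 and Isl1 rose by 0.55 ± 0.15 (16.7%, against 6.59% of all genes). Of the 12, 10 had a negative and 2 a positive difference, with a median of -0.39. Neither Pde10a nor Isl1 passed with KO 2 and KO 3 alone. Whether neighbouring tissue in the samples contributed to these differences was not tested.

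**Figure D3:**
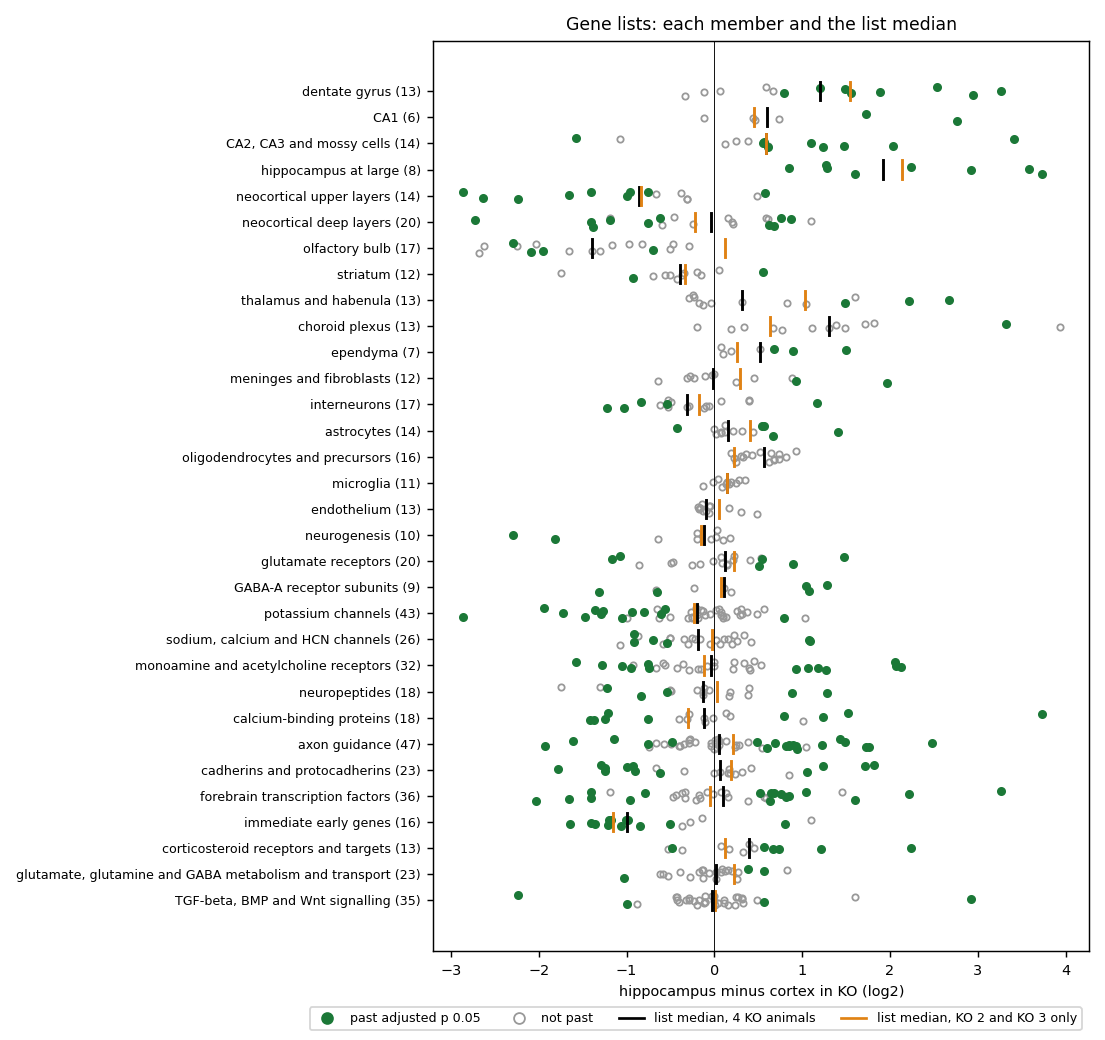
Hippocampus minus cortex in KO (log2, horizontal axis) for every measured member of 32 gene lists, with the number measured in parentheses. Filled points passed, open points did not, black bars mark the list median over the 4 animals and orange bars that over KO 2 and KO 3. The olfactory bulb median moves from -1.39 to 0.12 between the bars, and that of the hippocampus at large from 1.92 to 2.14.

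Astrocyte genes passed in both directions, whereas markers of other glia and of vessels did not pass. Gfap, the intermediate filament of astrocytes, had 13.25, 12.95, 13.4 and 13.29 in hippocampus KO 1 to 4, against 12.42, 11.37, 11.94 and 11.53 in cortex KO 1 to 4. All 4 hippocampus arrays were above all cortex arrays, and the difference was 1.41 ± 0.18 (SE, adjusted p = 0.000467). Sox9, a factor of astrocyte identity, Id4 and Aqp4, the water channel of astrocyte endfeet, rose by 0.67, 0.54 and 0.56. Aldh1l1, a folate enzyme used as a general astrocyte marker, fell by 0.43, so that 4 of the 14 astrocyte genes rose and 1 fell (35.7%, against 6.59% of all genes), with a median of 0.16. With KO 2 and KO 3 alone 3 rose and 0 fell, and 2 of these were among the 5. The 16 measured genes of oligodendrocytes and their precursors had positive differences with a median of 0.57, where 49.8% of all genes were positive, but 0 passed in limma and 7 had an unadjusted p under 0.05. Their mean was 12.5, 11.9, 12.45 and 11.91 in hippocampus KO 1 to 4, against 11.37, 11.91, 12.01 and 11.37 in cortex KO 1 to 4. The lowest of the 8 arrays were cortex KO 1 and KO 4, and with KO 2 and KO 3 alone the median was 0.22. Of 11 microglia genes and of 13 endothelial genes 0 passed in limma and 2 each had an unadjusted p under 0.05, with medians of 0.14 and -0.09. The share of all genes under that unadjusted p is not given here, so the counts of 7 and 2 have no background and are not read further.

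Interneuron genes differed in both directions, and their count depended on KO 1 and KO 4. Vip, the vasoactive intestinal peptide, averaged 8.99 ± 0.39 in hippocampus KO and 10.21 ± 0.37 in cortex KO (SD, n = 4 each) and fell by 1.22 ± 0.2 (SE, adjusted p = 0.00247). Npy, neuropeptide Y, fell by 0.84 ± 0.17 and Crh, corticotropin-releasing hormone, by 0.54 ± 0.13. Nos1, neuronal nitric oxide synthase, rose by 1.17 ± 0.29 (SE, adjusted p = 0.0313). With Gad1, described above, 4 of the 17 interneuron genes fell and 1 rose (29.4%, against 6.59% of all genes). Without KO 1 and KO 4, 1 fell and 2 rose, in WT 2 rose and 2 fell with a median of -0.06, and Vip without those animals was at -1.74 (adjusted p = 0.000369). Among 18 neuropeptide genes Vip, Npy and Crh fell, whereas Nts, neurotensin, rose by 0.88 and Grp, gastrin-releasing peptide, by 1.28 (27.8% of the list, against 6.59% of all genes). Grp was at 0.45 with KO 2 and KO 3 alone (adjusted p = 0.337), where 0 of these genes rose and 1 fell in limma.

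Receptors for transmitters changed in both directions within each family. Gria1, an AMPA receptor subunit, averaged 17.25 ± 0.1 in hippocampus KO and 16.36 ± 0.25 in cortex KO (SD, n = 4 each) and rose by 0.89 ± 0.14 (SE, adjusted p = 0.00164). Gria4, another AMPA receptor subunit, fell by 1.07 ± 0.2, and Grik3, a kainate receptor subunit, by 1.17 ± 0.2. From KO 2 and KO 3 alone neither of those that fell passed, with Gria4 at -0.65 (adjusted p = 0.124) and Grik3 at -0.87 (adjusted p = 0.107). Of 20 glutamate receptor genes 4 rose and 2 fell over the 4 animals (30.0%, against 6.59% of all genes), and 2 of these 6 also passed with KO 2 and KO 3 alone. Gabra5, the alpha5 subunit of GABA-A receptors, had 16.16, 16.11, 16.35 and 16.46 in hippocampus KO 1 to 4, against 15.73, 14.41, 14.45 and 15.37 in cortex KO 1 to 4. Without overlap, cortex KO 1 and KO 4 were the closest to hippocampus, and the difference was 1.28 ± 0.22 (SE, adjusted p = 0.00367), or 1.8 with KO 2 and KO 3 alone. Gabrb1 rose by 1.08 ± 0.14 and Gabra2 by 1.04 ± 0.22, while Gabra3 fell by 1.31 ± 0.19 and Gabrg3 by 0.65. These 5 were among 9 GABA-A receptor subunits measured (55.6%, against 6.59% of all genes).

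Among 32 receptors for monoamines and acetylcholine 7 rose and 6 fell (40.6%, against 6.59% of all genes). Chrm5, a muscarinic receptor, rose by 2.07 ± 0.22 (SE, adjusted p = 0.00016) and Chrna7, the alpha7 nicotinic receptor, by 1.18 ± 0.12 (SE, adjusted p = 9.58e-05). Htr4 and Htr1a, serotonin receptors that couple to stimulation and to inhibition of adenylyl cyclase, rose by 2.06 ± 0.22 and 1.27 ± 0.15. Htr2a, the serotonin receptor of cortical pyramidal cells, was named after its value was seen: it averaged 11.02 ± 0.12 in hippocampus KO and 12.6 ± 0.29 in cortex KO (SD, n = 4 each) and fell by 1.58 ± 0.22 (SE, adjusted p = 0.000826). Of the 32, 6 rose and 4 fell without KO 1 and KO 4, and 9 of these 10 were among the 13.

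Potassium channel genes that passed were mostly lower in hippocampus. Of 43 measured, 12 fell and 1, Kcnab2, rose (30.2%, against 6.59% of all genes), with a median of -0.2. Those that fell included Kcnh1, Kcnh3, Kcnh4, Kcnh5 and Kcnh7, all of the EAG, ERG and ELK group. Kcnh7 averaged 10.99 ± 0.07 in hippocampus KO and 12.27 ± 0.18 in cortex KO (SD, n = 4 each) and fell by 1.29 ± 0.14 (SE, adjusted p = 0.000203). Kcnab3, a beta subunit of voltage-gated channels, fell by 1.94 ± 0.26, and Kcnj4, an inward rectifier, by 1.36 ± 0.17. Leaving out KO 1 and KO 4, 9 fell, 8 of them among the 12, and 0 rose by limma. Among 26 sodium, calcium and HCN channel genes Cacng8, an AMPA receptor regulator of the TARP family, rose by 1.09 ± 0.13 and Scn3b, a sodium channel beta subunit, by 1.08 ± 0.17. Cacng3, another TARP, fell by 0.92 ± 0.16 and Cacnb4, a calcium channel beta subunit, by 0.91 ± 0.12, and 4 fell in all (23.1% of the list passed, against 6.59% of all genes). Of 18 calcium-binding proteins 4 rose and 5 fell (50%, against 6.59% of all genes), among them Hpca, hippocalcin, which rose by 1.52 ± 0.19. With KO 2 and KO 3 alone 4 of the list rose and 4 fell, and 7 of these had passed over the 4 animals. Necab3 fell by 1.42 ± 0.14, and Camkk2, a kinase of calmodulin kinases, fell by 1.37 ± 0.19.

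Genes that guide axons and hold cells together changed in both directions. Of 47 axon guidance genes 15 rose and 5 fell, 42.6% of the list against 6.59% of all genes, with a median of 0.05. Beside Slit1, the Eph receptor Epha7 rose by 1.43 ± 0.16 (SE, adjusted p = 0.00026) and Plxna1, a semaphorin receptor, by 0.82 ± 0.1 (SE, adjusted p = 0.000391), whereas Efna5 fell as given above. Leaving out KO 1 and KO 4, 12 rose and 2 fell, and 13 of these 14 were among the 20. Of 23 cadherins and protocadherins 4 rose and 8 fell (52.2%, against 6.59% of all genes). Pcdh19 rose by 1.82 ± 0.21 and Cdh9 by 1.71 ± 0.16, while Cdh6 fell by 1.78 ± 0.21 and Pcdh10 by 1.24 ± 0.16. All 4 had arrays that did not overlap between the regions. With KO 2 and KO 3 alone 3 rose and 5 fell.

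Of 36 transcription factors of the forebrain 11 rose and 6 fell (47.2%, against 6.59% of all genes). Prox1 and Lhx9 led the rise, and Mef2c, Cux2 and Tbr1 were among those that fell. Without KO 1 and KO 4, 3 rose and 9 fell, and 9 of these 12 were among the 17. In the TGF-beta, BMP and Wnt list 2 of 35 genes rose, Tgfb2 and the Wnt receptor Fzd8 (0.57 ± 0.14), and 2 fell, Dkkl1 and Inhba, a subunit of activin (-1.0 ± 0.2, and -0.61 with KO 2 and KO 3 alone, where it did not pass). The share that passed was 11.4%, against 6.59% of all genes.

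Immediate early genes, which neurons transcribe rapidly after activity without need of new protein, were lower in hippocampus. Many of their promoters are known to bind CREB, a factor that responds to calcium and cyclic AMP and recognises the half-site TGACG. In RefSeq's promoter table for GRCm38.p6, which gives 250 bases before to 50 after a start, 12 of the 16 genes had 17 windows in all. Of these, 14 held the half-site on either strand (TGACG or CGTCA), 82.4% against 20.8% of all 32851 windows, and the 3 without it were windows of Egr2 and Homer1, which held it in another window. Some windows of Egr2 overlap and hold the same half-sites, so the 17 windows are not separate promoters. Overlapping matches were counted singly, so that a full palindrome counted as 2. A match describes letters in a window and is no evidence of binding here. Of the promoters, 3 are shown for genes that fell, with 2 half-sites in Npas4 (chr19:4989972-4990221, minus strand), 4 in Nr4a1 (chr15:101266596-101266845, plus strand) and 2 in Fos (chr12:85473640-85473889, plus strand), and 1 for the member that rose, with 4 half-sites in Nr4a3 (chr4:48045055-48045304, plus strand). Each runs 5′ to 3′ over the 250 bases before the start, with half-sites in capitals. Fos was picked as a familiar member after its values were seen.
Npas4: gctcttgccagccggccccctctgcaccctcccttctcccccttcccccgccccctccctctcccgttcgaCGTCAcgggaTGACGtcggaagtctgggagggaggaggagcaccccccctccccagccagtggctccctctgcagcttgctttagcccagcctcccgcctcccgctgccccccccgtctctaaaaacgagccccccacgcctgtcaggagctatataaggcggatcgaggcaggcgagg
Nr4a1: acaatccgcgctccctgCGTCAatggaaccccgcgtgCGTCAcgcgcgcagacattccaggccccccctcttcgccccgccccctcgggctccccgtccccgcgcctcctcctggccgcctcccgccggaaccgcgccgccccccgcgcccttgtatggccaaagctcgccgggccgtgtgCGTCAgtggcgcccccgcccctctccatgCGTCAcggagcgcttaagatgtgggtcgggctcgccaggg
Fos: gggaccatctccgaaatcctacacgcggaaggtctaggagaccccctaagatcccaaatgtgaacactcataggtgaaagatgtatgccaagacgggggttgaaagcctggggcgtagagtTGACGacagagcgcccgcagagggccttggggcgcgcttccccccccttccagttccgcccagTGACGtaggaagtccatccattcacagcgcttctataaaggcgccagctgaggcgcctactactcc
Nr4a3: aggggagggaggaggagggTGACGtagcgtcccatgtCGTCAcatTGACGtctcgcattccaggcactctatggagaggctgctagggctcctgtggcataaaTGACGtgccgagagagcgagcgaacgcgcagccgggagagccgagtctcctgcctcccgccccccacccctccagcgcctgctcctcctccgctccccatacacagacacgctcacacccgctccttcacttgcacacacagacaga

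Of the 16 immediate early genes 11 fell and 1 rose, 75.0% of the list against 6.59% of all genes, and the median was -1.0. Egr1, a zinc finger factor induced by synaptic activity, had 13.54, 13.53, 13.6 and 13.99 in hippocampus KO 1 to 4, against 14.7, 15.44, 15.85 and 15.23 in cortex KO 1 to 4. No hippocampus array reached the lowest cortex array, and the difference was -1.64 ± 0.16 (SE, adjusted p = 9.58e-05). Npas4, an activity-dependent factor that shapes inhibition, had 8.59, 9.19, 9.32 and 8.52 in hippocampus KO 1 to 4, against 10.02, 10.55, 10.63 and 10.06 in cortex KO 1 to 4. The animals with higher Npas4 in cortex, KO 2 and KO 3, also had higher Npas4 in hippocampus, and the difference of -1.41 ± 0.11 (SE, adjusted p = 1.95e-05) had a small error. Nr4a1, an orphan nuclear receptor, had 11.87, 11.38, 11.91 and 12.06 in hippocampus KO 1 to 4, against 13.24, 13.12, 13.37 and 12.94 in cortex KO 1 to 4. It fell in each animal, by 1.36 ± 0.15 on average (SE, adjusted p = 0.000176).

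Homer1, a scaffold of postsynaptic glutamate receptors with an activity-induced short form, averaged 13.98 ± 0.17 in hippocampus KO and 15.17 ± 0.28 in cortex KO (SD, n = 4 each). Fos, a subunit of the AP-1 factor, had 9.07, 9.65, 9.45 and 9.38 in hippocampus KO 1 to 4, against 10.07, 10.02, 10.65 and 10.2 in cortex KO 1 to 4. It fell by 0.85 ± 0.14 (SE, adjusted p = 0.00349) without overlap, but with KO 2 and KO 3 alone its adjusted p was 0.0713. Egr2, Egr3, Egr4, Arc, Dusp1 and Fosb made up the rest of those that fell, by 0.5 to 1.21, and the 11 genes had no overlap of arrays. Of all genes 4.72% were lower without overlap, and so were 462 of the 548 genes that passed as lower. Nr4a3, a relative of Nr4a1, went the other way, with 14.32, 14.04, 14.75 and 14.98 in hippocampus KO 1 to 4, against 13.97, 13.41, 13.96 and 13.56 in cortex KO 1 to 4. Its regions lay close in KO 1 but did not overlap, and the difference was 0.8 ± 0.15 (SE, adjusted p = 0.00683). With 4 half-sites each, the promoter windows of Nr4a1 and Nr4a3 belong to genes that differed in opposite directions. Junb, Ier2, Btg2 and Nr4a2 did not pass. With KO 2 and KO 3 alone 10 fell and 1 rose, and in WT 10 fell and 1 rose.

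**Figure D4:**
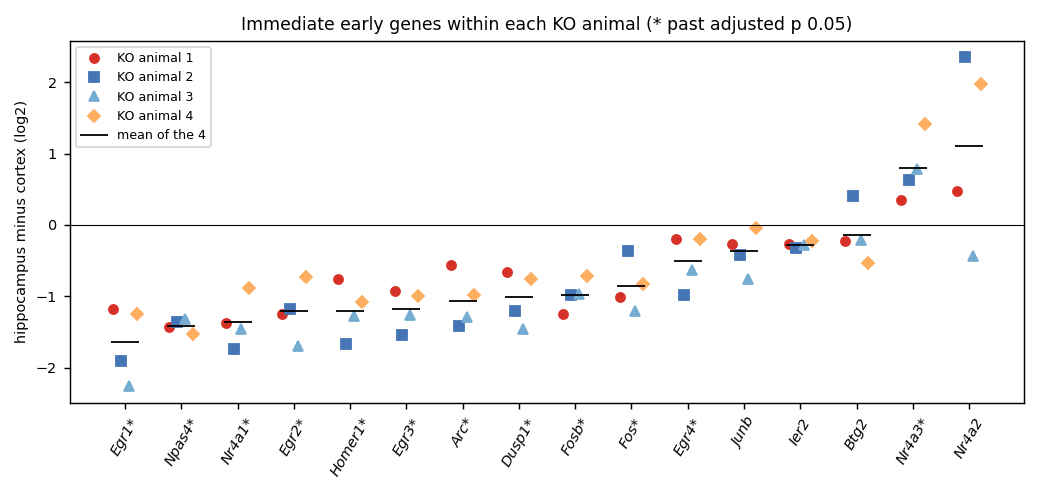
Hippocampus minus cortex (log2, vertical axis) of 16 immediate early genes within each KO animal, with bars for the mean of the 4 and asterisks for genes that passed. The 11 genes that fell are below 0 in every animal, Nr4a3 is above 0 in every animal, and Nr4a2 spreads widely.

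Genes of the corticosteroid response and of glutamate handling, the route by which brain tissue binds ammonia, changed to different extents. Of 13 corticosteroid genes 5 rose and 1, the clock gene Per1, fell (46.2%, against 6.59% of all genes), with a median of 0.39. After Nr3c2, the largest rise was that of Hsd11b1, an enzyme that regenerates active corticosterone, with 11.32 ± 0.32 in hippocampus KO and 10.11 ± 0.24 in cortex KO (SD, n = 4 each) and a difference of 1.21 ± 0.2 (SE, adjusted p = 0.00308). Fkbp5, a co-chaperone of the receptors, rose by 0.67 ± 0.12, Txnip by 0.57 ± 0.11 and Errfi1 by 0.73. With KO 2 and KO 3 alone 2 rose and 2 fell, 3 of these 4 were among the 6, and Hsd11b1 was at 0.85 (adjusted p = 0.0963). Of 23 genes of glutamate, glutamine and GABA metabolism and transport 3 passed, 13.0% against 6.59% of all genes, with a median of 0.02. They were Gad1 with the array pattern given above, Aqp4, and Slc1a1, a neuronal glutamate transporter, which rose by 0.38 ± 0.1 (SE, adjusted p = 0.0472) with overlap of arrays.

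Regional differences of WT were then followed into the KO animals, which share no arrays with WT but share the estimate of the spread. In WT 1162 genes passed (5.94%) and 270 did so with a 2-fold difference (1.38%). All 270 had the same direction in KO and 255 passed there, which is 94.4%. Of these, 141 were higher and 114 lower in hippocampus, and 220 were also 2-fold different in KO. From KO 2 and KO 3 alone 237 of the 270 passed. The median size of the difference of the 270, with its sign turned to that of WT, was 1.32 in KO and 1.32 in WT, and 1.43 from KO 2 and KO 3 alone. At the lower threshold with no fold minimum, 754 genes passed in both, 58.5% of the KO genes and 64.9% of the WT genes. Over all genes the KO and WT differences correlated at r = 0.752, as a description across genes, which are not independent and share the 2 regions.

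**Figure D5:**
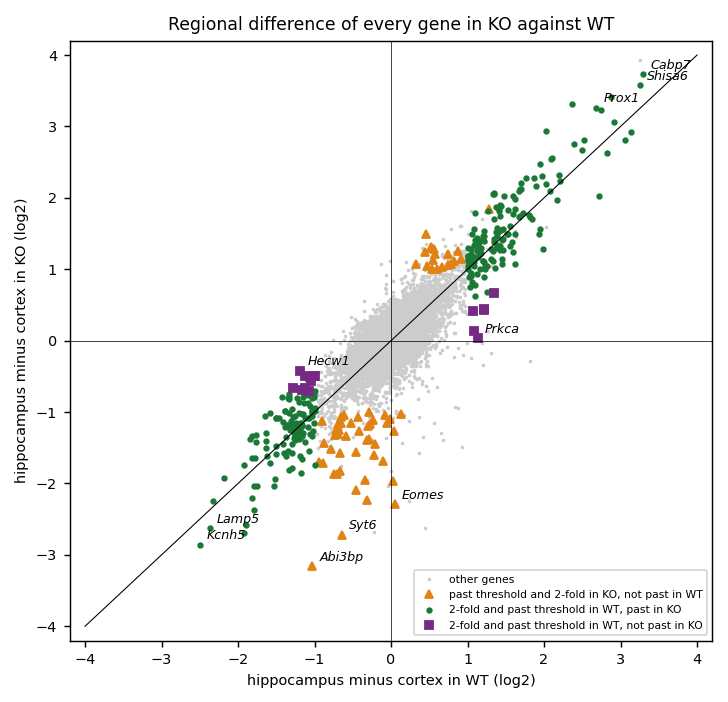
Hippocampus minus cortex in KO (vertical axis, log2) against the same difference in WT (horizontal axis, log2), 1 point per gene, with the line of equal values. Green points (255 genes) passed with a 2-fold difference in WT and passed in KO, purple squares (15) did not pass in KO, and orange triangles (62) passed with a 2-fold difference in KO alone.

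The difference between the genotypes was tested directly, as KO minus WT of the regional difference. In limma 0 of 19572 genes passed (0.0%), with a smallest adjusted p of 0.996, and 808 had an unadjusted p under 0.05, 423 with a larger and 385 with a smaller value in KO. Without the animal in the model 898 had an unadjusted p under 0.05, with the animal as a random block 807 did, and from KO 2 and KO 3 with the WT animals 710 did, again with 0 passing in each. Where no gene differs, a share of about 0.05 of all genes has an unadjusted p under 0.05. Each of these counts was below that share of the 19572 genes. The median SE of the KO minus WT difference was 0.183, against 0.13 for the regional difference in KO. In simulated data with 200 changed genes, the test of KO minus WT recovered 5.6% of the differences of 0.5 and 64% of those of 1. A difference of 0.5 would thus mostly be missed, and 0 genes passing does not show that the genotypes are alike. Over the 270 genes with a 2-fold difference in WT the median size of KO minus WT was 0.23.

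The 10 genes of smallest p in that test are given as values that failed the correction. Olfr250, an olfactory receptor gene, differed by 0.28 in KO and by -0.45 in WT, at values between 5.97 and 6.7 on all 16 arrays. Prelp, an extracellular matrix protein, averaged 12.14 ± 0.24 in hippocampus KO and 10.54 ± 0.31 in cortex KO, against 11.85 ± 0.4 in hippocampus WT and 10.93 ± 0.41 in cortex WT (SD, n = 4 each). It was higher in hippocampus in both genotypes, by 1.61 in KO and by 0.92 in WT. Dnah6, a dynein of cilia, rose by 0.81 ± 0.12 in KO (SE, adjusted p = 0.00133) and differed by 0.14 in WT (adjusted p = 0.546). Hecw1, a ubiquitin ligase, had 11.92, 12.19, 11.94 and 11.92 in hippocampus KO 1 to 4, against 12, 12.67, 12.74 and 12.24 in cortex KO 1 to 4, and a difference of -0.42 in KO and of -1.19 in WT. In KO the regions overlapped and in WT they did not. The other 6 were Trim69, A930009A15Rik, Tiparp, Mtif2, Sh3bp1 and Zfp184, with genotype differences from -0.84 to 0.68.

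Of the 15 WT genes that did not pass in KO, 9 passed from KO 2 and KO 3 alone. Prkca, protein kinase C alpha, had 14.3, 13.96, 14.61 and 14.41 in hippocampus KO 1 to 4, against 14.8, 13.85, 13.52 and 15 in cortex KO 1 to 4. Cortex KO 1 and KO 4 exceeded their own hippocampus arrays, and the difference was 0.03 ± 0.21 (SE) in KO and 1.13 ± 0.21 (SE, adjusted p = 0.00789) in WT. With KO 2 and KO 3 alone Prkca was at 0.6 and did not pass either (adjusted p = 0.16), and within KO 2 it differed by 0.11. Arhgef6, a guanine nucleotide exchange factor, and Dock10, another such factor found in dentate granule cells, differed by 0.43 and 0.67 over 4 KO animals and by 1.27 and 1.54 with KO 2 and KO 3 alone, where both passed. Rerg did so as well, at 0.14 and 0.89. Akap13, an anchoring protein of kinase A, was at 0.44 over 4 KO animals and 1.21 in WT, and did not pass with KO 2 and KO 3 alone (adjusted p = 0.308).

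In the other direction, 62 of the 353 genes with a 2-fold difference in KO did not pass in WT, 43 of them lower and 19 higher in hippocampus. Cortex KO 1 and KO 4 were the 2 highest of the 4 cortex arrays in 40 of the 43, against 30 of the 121 lower genes that passed in WT too. Abi3bp, Syt6, Eomes, Meis2, Slco5a1, Gng4, Dcx, Gad1 and Inhba were among the 43, and so were Htr2a, Deptor, Grik3 and Gria4. Htr2a was not among the 40, with 12.5, 12.58, 12.31 and 13.01 in cortex KO 1 to 4. It passed with KO 2 and KO 3 alone (-1.34, adjusted p = 0.0297). Abi3bp had 7.39, 7.16, 7.19 and 7.98 in hippocampus WT 1 to 4, against 8.38, 8.23, 8.67 and 8.58 in cortex WT 1 to 4. In WT its regions did not overlap either, at a difference of -1.03 (adjusted p = 0.195). Of the 62 genes 12 passed with KO 2 and KO 3 alone. Whether material of the olfactory bulb accounts for the rest was not tested.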

How the data were processed

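RNA of cerebral cortex, hippocampus and cerebellum from 4 KO and 4 WT mice was measured on 24 microarrays. The values are log2 values that the authors made with RMA (background correction, normalization between arrays and summary of probes), per the submitters' processing notes, deposited as 1 value per gene row and array. Settings of RMA, the base of the logarithm and the build of the genome are not given in the sources. A log2 scale was inferred from the range of 3.89 to 19.14. Values near the top exceed the usual ceiling of a scanner on that scale, so a difference of 1 may not be exactly a 2-fold difference in RNA. The labels name both biotin and Cy3 labelling, so that the chemistry is not settled. No scanner file was used, so detection above background was not judged, and the number of arrays limits the precision.

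Of 22206 rows, 19572 carried 1 gene in the platform annotation (19505 symbols). Rows without a gene or with several, 2634 in all and not counted apart, were left out. Symbols of all 19572 were matched to RefSeq GRCm38.p6 by gene ID. Some genes have more than 1 row, and each row was tested by itself.

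limma 3.58.1 in R 4.3.3 (lmFit, eBayes) was fitted to the 16 arrays of hippocampus and cortex, with 1 term per animal and 1 regional difference per genotype, which left 6 residual degrees of freedom. Tests were 2-sided and adjusted by Benjamini-Hochberg over 19572 rows. Both regions carry the same animal numbers within a genotype in the labels, so the numbers pair the samples. The correlation of the 2 deviations of an animal from its group means ran from -0.154 to 0.026 in KO and from -0.117 to 0.158 in WT. The scripts were first tested on simulated data. The alternatives were the model without or with a random animal block, KO arrays alone, all 24 arrays, quantile normalization, median centring, a filter that drops the dimmest 25% of rows, other priors, array weights and fewer animals.

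The comparison, the 32 gene lists and the animals left out were chosen with earlier results of these data known, so that a list's count is a description. Genes were named by a rule: the 10 largest differences each way that passed also without KO 1 and KO 4, the next 8 each way with all 4 animals agreeing in sign, up to 4 members of smallest p per list, the 10 smallest p for the genotype difference, 6 WT genes not passing in KO, and a few standard markers, of which Zbtb20 has no row named here. Genes named to complete a small count or to illustrate a family lie outside the rule and were chosen after their values were seen.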

Additional observations from a re-analysis of the deposited data

Results flagged for a closer look

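Within the 2 KO groups each of the 123 genes chosen by the naming rule was examined for 1 array far from the other 3, and 11 of 246 groups showed one, where chance gives about 1 in 20. In hippocampus KO 2, Gng4 was highest at 12.02 (the others 11.1 to 11.25), Chrm5 was highest at 9.18 (the others 8.36 to 8.48), Hecw1 was highest at 12.19 (the others 11.92 to 11.94), Gad1 was lowest at 12.08 (the others 12.64 to 12.73) and Inhba was lowest at 9.32 (the others 9.97 to 10.05). In hippocampus KO 4, Grik4 was highest at 11.35 (the others 10.95 to 11.01) and Egr1 was highest at 13.99 (the others 13.53 to 13.6). In cortex KO 1, Cdh9 was lowest at 9.45 (the others 9.84 to 9.9) and Mtif2 was highest at 9.85 (the others 9.54 to 9.59). Kctd4 was lowest in cortex KO 4 at 9.83 (the others 10.23 to 10.31) and Lct in cortex KO 3 at 7.19 (the others 7.52 to 7.55).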

How the results depend on the processing

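The count of genes that passed in KO was 1289, and it was 1534 with no replicate block, 1411 with the animal as a random replicate block, 841 from the KO arrays only, 743 without KO animals 1 and 4, and 801 without KO animals 1 and 2, an alternative chosen after seeing the data. Leaving out 1 animal at a time gave 784 (without KO 4) to 1358 (without WT 3). Fewer arrays enter these smaller fits. Without KO 4 the count fell by more than 1.5 times, and 726 of the 784 were among the 1289. The other settings gave 1235 to 1356. The count at 2-fold stayed between 303 and 420 and the genotype difference had 0 genes passing in all settings that fit it. The count of WT genes at 2-fold that also passed in KO ran from 197 to 279. Of 2315 values, for 123 differences of named genes over the settings, 2144 kept direction and side of the threshold, 162 fell short of it, 5 came past it and 4 turned direction, all without KO animals 1 and 4: the KO minus WT difference of Arhgef6 was 0.05 and that of Dock10 0.19, and hippocampus minus cortex in KO was -0.38 for Fezf2 and 0.22 for Th. None of these 4 had passed, and 82 of the 123 differences kept their call in each setting. Removing the replicate block changed the call of 7 of them and the random block that of 9. The cause of these shifts was not tested. Signal over background is not known, so values near the low end carry unknown precision.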

Other observations

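Members of the gene families that lie outside the naming rule, picked after their values were seen, had large differences as well. Drd5, a dopamine receptor that stimulates adenylyl cyclase, had 9.69, 10.11, 10.67 and 10.59 in hippocampus KO 1 to 4, against 8.19, 8.28, 8.19 and 7.92 in cortex KO 1 to 4, and rose by 2.12 ± 0.29 (SE, limma adjusted p = 0.000811). Nrp2, a receptor for class 3 semaphorins, rose by 1.76 ± 0.26 (adjusted p = 0.0014), and Epha6, an Eph receptor, by 1.73 ± 0.25 (adjusted p = 0.00112). Sema3a, a ligand of the neuropilin and plexin receptors, averaged 9.24 ± 0.17 in hippocampus KO and 10.85 ± 0.1 in cortex KO (SD, n = 4 each). In these 4 genes the arrays of the regions did not overlap, and all passed with KO 2 and KO 3 alone. Nnat, neuronatin, averaged 14.42 ± 0.26 in hippocampus KO and 12.39 ± 0.66 in cortex KO (SD, n = 4 each). Tdo2, tryptophan dioxygenase, differed by 1.89 ± 0.22 in KO (adjusted p = 0.000307) and by 1.44 in WT (adjusted p = 0.00234). Calb2, calretinin, differed by -0.29 over the 4 KO animals and by 2.45 with KO 2 and KO 3 alone (adjusted p = 0.0104).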
